A study of Mus musculus with 9 samples.

Results

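The NFAT and calcium entry genes are 10 genes that carry a calcium signal from the internal store to the nucleus: Itpr1, Itpr2, Stim1, Orai1, Orai2, Ppp3ca, Rcan1, Nfatc1, Nfatc2 and Nfatc3. They were picked by gene symbol for their place in the pathway, with earlier results of these data known, and all 10 were found among the 35673 symbols of the deposited count table. All 10 passed the filter on low counts. Bulk RNA sequencing gave their expression in basophils, rare granulocytes that release histamine and type 2 cytokines, grown from bone marrow of C57BL/6J WT mice.

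All cells were cultured for 7 days with 0.3 ng/mL interleukin-3 (IL-3) and taken by magnetic selection for the surface protein CD49b. Each library came from 10000 cells and a 4 hour incubation, and each of the 3 groups had 3 libraries. The difamilast group received IL-3 and IL-33, each at 10 ng/mL, with 3 µM difamilast, an inhibitor of the cAMP-degrading enzyme phosphodiesterase 4 (PDE4). The stimulated group received the same cytokines with the vehicle DMSO. The resting group received PBS with DMSO. Whether the libraries of a group stem from different cultures or mice is not in the labels. The p-values therefore rest on the spread of these libraries alone, and that spread may be technical. In bulk samples, fewer cells of a type and less RNA per cell cannot be told apart.

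Release of calcium from the endoplasmic reticulum through IP3 receptors empties the store, and STIM proteins sense this and open ORAI channels in the plasma membrane. The calcium that enters activates the phosphatase calcineurin, which strips phosphate from NFAT factors and lets them enter the nucleus. In basophils and mast cells this route is best known for its use by the IgE receptor, where it drives transcription of Il4 and Il13. IL-33 acts through the receptor ST2 and the adaptor MyD88.

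Library totals ran from 24812305 to 30299575 counts in difamilast, from 11798711 to 38098584 in stimulated and from 6261446 to 14795353 in resting libraries. The TMM factors that scale these totals ran from 0.851 to 0.916 in difamilast, 0.871 to 0.892 in stimulated and 1.23 to 1.32 in resting libraries. Levels and fold changes against resting cells rest on these factors. The basophil protease gene Mcpt8 lay between 2498 and 3293 CPM (counts scaled by the TMM-normalised library total) in difamilast, 3273 and 3712 in stimulated and 957 and 1715 in resting libraries, so the labelled cell type had its defining marker. The 12 basophil markers summed to between 14783 and 15068 CPM in difamilast, 13360 and 14106 in stimulated and 7329 and 8776 in resting libraries. Of these 12, 7 rose, 4 did not pass and 1 fell in stimulated against resting cells; the one that fell was Itga2, which encodes CD49b, the protein used for the selection (12.4 CPM in stimulated and 21.9 in resting cells on average, adjusted p = 0.000529). The 12 monocyte and macrophage markers, led by Lyz2, summed to between 4562 and 4948, 4761 and 5046, and 6118 and 7645 CPM in the same order of groups. Of the monocyte and macrophage markers 8 fell and 1 rose in stimulated against resting cells. The erythroid and platelet markers summed to between 382 and 454 CPM in difamilast, 288 and 409 in stimulated and 463 and 663 in resting libraries. Their most abundant gene, Itga2b, fell 1.98-fold in stimulated against resting cells (adjusted p = 0.000178), and the other 4 tested markers of this list did not pass. The mast cell markers, led by Cpa3, summed to between 1667 and 2002, 1755 and 1891, and 970 and 1369 CPM. Of the 8 tested, Cpa3 rose, 3 fell (Kit, Mcpt1 and Mcpt2) and 4 did not pass in stimulated against resting cells. The 10 neutrophil markers summed to between 155 and 242 CPM in difamilast, 228 and 261 in stimulated and 173 and 210 in resting libraries. Of these 10, 3 rose, 1 fell and 6 did not pass in stimulated against resting cells. In that comparison 15.3% of all tested genes were called as higher and 16.4% as lower. The 12 T and NK cell markers summed to no more than 41.9 CPM in any library, and the 7 B cell markers to no more than 46.1. No marker on any list was at 0 in all 9 libraries. Resting replicate 1 stood farthest from its group: over 8867 genes averaging at least 10 CPM, its root mean square log2 difference from the other libraries of the group was 0.425, against 0.293 and 0.278 for resting replicates 2 and 3. In the difamilast group replicate 3 stood farthest, at 0.2995, against 0.204 and 0.176.

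Levels of different genes were set side by side as CPM per kb of the longest annotated transcript. In difamilast cells Orai1 led at 86.2 ± 8.23 CPM per kb (SD, n = 3), then Orai2 at 39.8 ± 2.24, Ppp3ca at 18.3 ± 0.842, Nfatc3 at 10.3 ± 0.432, Stim1 at 7.38 ± 0.222 and Nfatc1 at 5.98 ± 0.297. Below these lay Rcan1 at 4.51 ± 0.585, Itpr2 at 2.92 ± 0.194, Itpr1 at 2.72 ± 0.519 and Nfatc2 at 1.15 ± 0.0891. Only the neighbours Itpr2 and Itpr1 overlapped within 1 SD in that order. In stimulated cells Orai1 led at 74.3 ± 6.42 and Orai2 followed at 29.5 ± 0.556 CPM per kb, and Nfatc1, Stim1 and Rcan1 lay within 1 SD of their neighbours at 6.16 ± 0.0632, 6.00 ± 0.538 and 5.80 ± 0.414. In resting cells the channel genes stood the other way round, with Orai2 at 52.9 ± 4.03 and Orai1 at 37.1 ± 5.62 CPM per kb. Stim1, Nfatc3 and Nfatc1 followed Ppp3ca there at 15.3 ± 2.38, 14.8 ± 0.351 and 12.5 ± 2.89, and Nfatc2 and Itpr1 closed the order at 2.46 ± 0.149 and 2.23 ± 0.307; in both runs the neighbours overlapped within 1 SD.

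**Figure D1:**
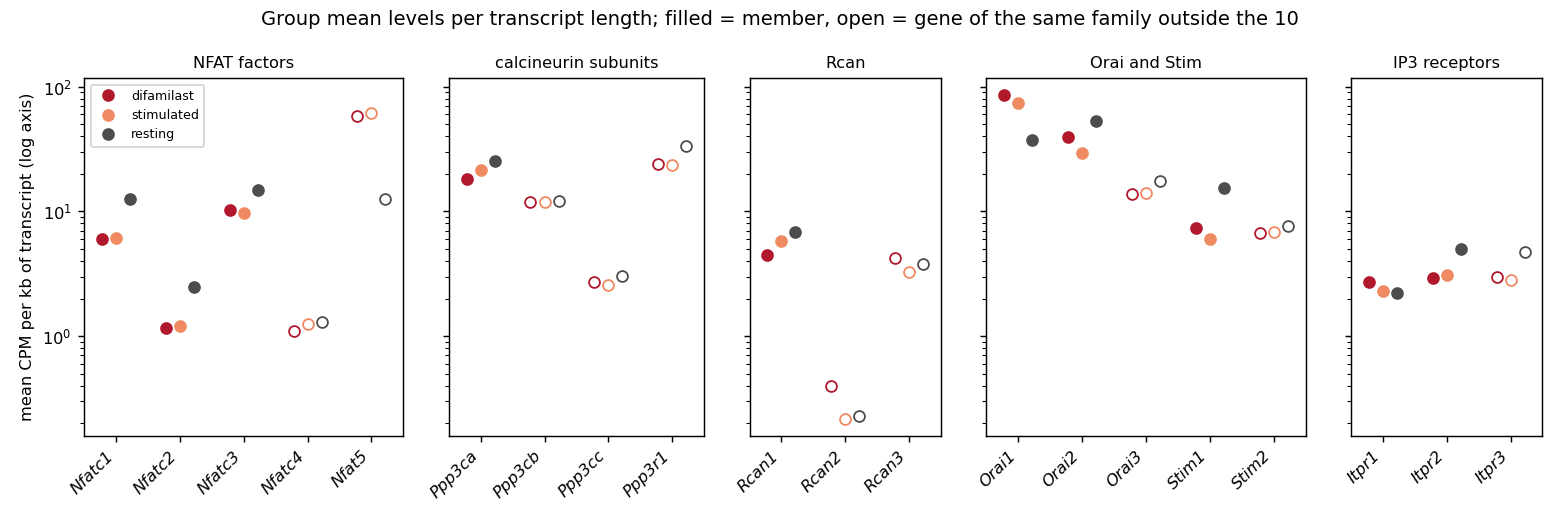
Mean level of each member (filled) and of other genes of the same families (open) in difamilast, stimulated and resting cells, in CPM per kb of transcript on a log axis; each point is the mean of 3 libraries. Orai1 lies above Orai2 in difamilast and stimulated cells (86.2 against 39.8 and 74.3 against 29.5 CPM per kb) and below it in resting cells (37.1 against 52.9), and Nfat5 has the highest level of the NFAT factors in difamilast and stimulated cells.

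Stimulated and resting cells differ in the added IL-3 and IL-33. Most of the calcium and NFAT genes were lower in stimulated cells. In edgeR's quasi-likelihood test, adjusted by Benjamini-Hochberg over 21341 genes and called at an adjusted p under 0.05, 6 of the 10 fell (Stim1, Nfatc2, Nfatc1, Orai2, Itpr2 and Nfatc3), 1 rose (Orai1) and 3 did not pass (Ppp3ca, Rcan1 and Itpr1). Of all tested genes 31.7% were called, 16.4% as lower and 15.3% as higher. The median log2 fold change of the 10 was -0.65, against 0.06 over all tested genes. The libraries of both groups did not overlap for 8 of the 10, against 43.7% of all tested genes (23.2% as higher, 20.6% as lower). Without resting replicate 1 the same 7 genes were called in the same directions.

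Difamilast and stimulated cells differ in the PDE4 inhibitor. Orai2 rose and none of the other 9 genes passed the same test, where 3.44% of all tested genes were called, 2.21% as higher and 1.24% as lower. At an unadjusted p under 0.05, 4 of the 10 differed: Orai2 and Stim1 higher, Ppp3ca and Rcan1 lower. The Orai2 call held in DESeq2 and was lost in 5 of 17 alternatives, each of which left out 1 library. The median log2 fold change was 0.03 over the 10 and -0.00 over all tested genes, and the libraries did not overlap for 5 of the 10, against 24.8% of all tested genes (12.2% as higher, 12.6% as lower).

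Against resting cells, which are also the reference of the first comparison, difamilast-treated stimulated cells held 8 of the 10 genes lower and Orai1 higher, with Itpr1 not passing. In that comparison 32.8% of all tested genes were called, 16.4% as lower and 16.4% as higher. The libraries did not overlap for 9 of the 10, against 42.9% of all tested genes (23% as higher, 19.8% as lower).

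**Figure D2:**
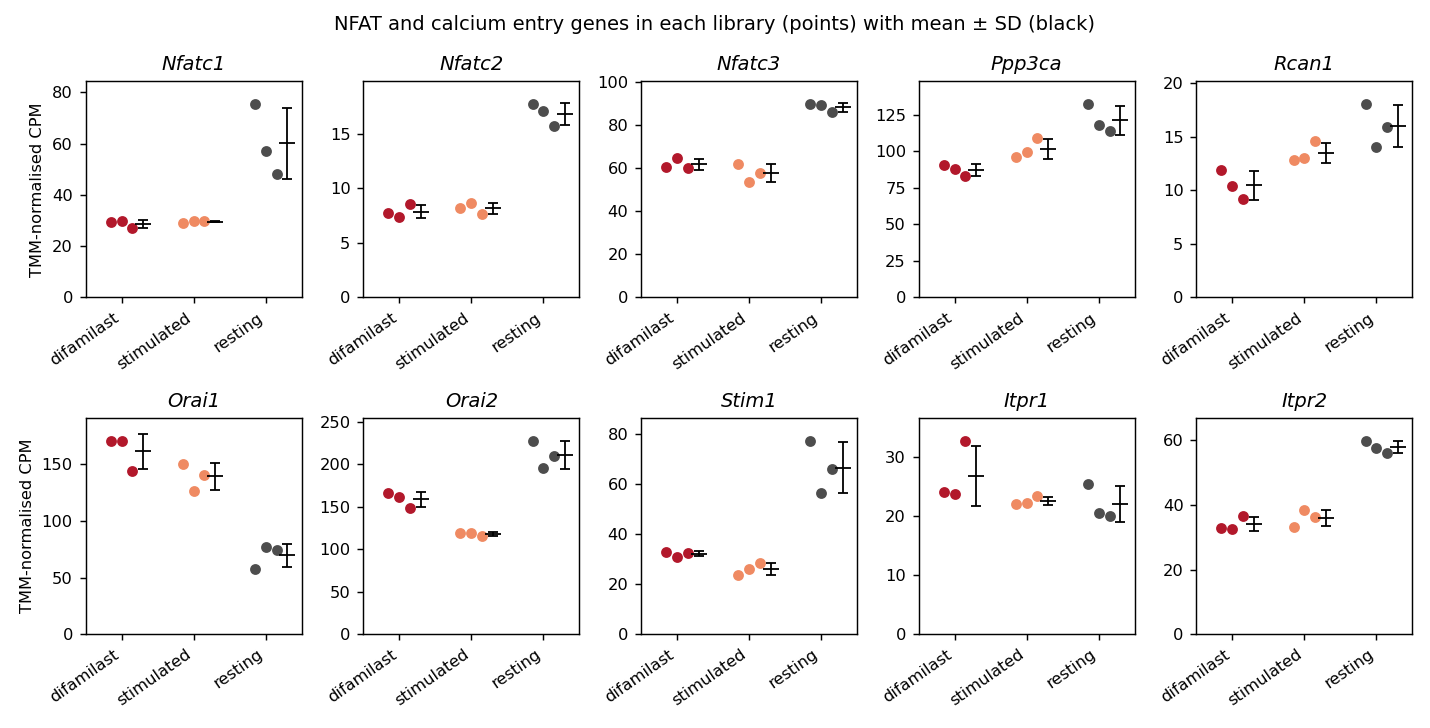
TMM-normalised CPM of each member in each library (points, on axes that start at 0), with mean ± SD of 3 libraries in black, for difamilast, stimulated and resting cells. Stimulated libraries lie below all resting libraries for Nfatc1, Nfatc2, Nfatc3, Ppp3ca, Orai2, Stim1 and Itpr2 and above them for Orai1.

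The IP3 receptor genes parted. Itpr2 encodes a receptor of high IP3 affinity and lies on chromosome 6 from 146108299 to 146502223 (GRCm38). It had 32.9, 32.6 and 36.7 CPM in difamilast, 33.3, 38.4 and 36.3 in stimulated and 59.9, 57.6 and 56.2 in resting libraries. The stimulated libraries were all below the resting ones and mixed with the difamilast ones, and Itpr2 fell 1.61-fold in stimulated against resting cells (log2 fold change -0.68 ± 0.11 SE; adjusted p = 0.000219). Itpr1, the isoform best known from neurons, lies on chromosome 6 from 108213096 to 108551109. It had 24.0, 23.8 and 32.8 CPM in difamilast, 22.1, 22.2 and 23.4 in stimulated and 25.5, 20.6 and 20.0 in resting libraries. Stimulated and resting libraries mixed (log2 fold change 0.03 ± 0.16 SE, adjusted p = 0.908; -0.02 with RLE scaling). All 3 difamilast libraries lay above the stimulated ones, replicate 3 by far the most, but the test was not passed (0.25 ± 0.15, adjusted p = 0.496). The ratio of Itpr1 to Itpr2 within a library, per length, was 0.863, 0.861 and 1.06 in difamilast, 0.784, 0.686 and 0.761 in stimulated and 0.505, 0.423 and 0.421 in resting libraries. A ratio taken within a library does not depend on the scaling between libraries, and this one did not overlap between groups.

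Itpr3, the paralog outside the 10, was named after its values had been seen. It averaged 26.7 ± 2.53 CPM in difamilast, 25.3 ± 2.50 in stimulated and 42.2 ± 1.83 in resting cells (SD, n = 3) and fell 1.66-fold in stimulated against resting cells (adjusted p = 0.000352). Per length the 3 receptor genes lay between 2.72 and 2.97 CPM per kb in difamilast cells, between 2.29 and 3.08 in stimulated cells and between 2.23 and 4.96 in resting cells.

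The store sensor and the channel pore gave the largest fall and the single rise among the 10 in stimulated against resting cells. Stim1, which encodes the calcium sensor of the endoplasmic reticulum, lies on chromosome 7 from 102267806 to 102437319. It had 32.8, 31.1 and 32.7 CPM in difamilast, 23.8, 26.2 and 28.5 in stimulated and 77.4, 56.7 and 66.1 in resting libraries. Its 2.54-fold fall in stimulated against resting cells was the largest among the 10 in that comparison (log2 fold change -1.34 ± 0.13 SE; adjusted p = 1.35e-06). All difamilast libraries lay above all stimulated ones, yet Stim1 did not pass the test there (0.29 ± 0.13, adjusted p = 0.305).

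Orai1 encodes the pore subunit of the calcium release-activated channel and lies on chromosome 5 from 123015074 to 123030456. It had 171, 171 and 144 CPM in difamilast, 151, 127 and 141 in stimulated and 57.5, 77.0 and 74.1 in resting libraries. It rose 2-fold in stimulated against resting cells (log2 fold change 1.00 ± 0.13 SE; adjusted p = 2.1e-05), with every stimulated library above every resting one. Difamilast and stimulated libraries overlapped (0.22 ± 0.12, adjusted p = 0.463).

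Orai2 encodes a related channel subunit, known in mouse T cells and mast cells to lower calcium entry when it joins ORAI1, and lies on chromosome 5 from 136147459 to 136170713. It had 166, 162 and 149 CPM in difamilast, 119, 119 and 115 in stimulated and 227, 195 and 210 in resting libraries. The 3 groups did not overlap, and the difamilast libraries lay between the other groups. Orai2 fell 1.79-fold in stimulated against resting cells (log2 fold change -0.84 ± 0.10 SE; adjusted p = 9.16e-06). It rose 1.35-fold with difamilast against stimulated cells (0.43 ± 0.10; adjusted p = 0.0211) and was 1.33-fold lower in difamilast than in resting cells (adjusted p = 0.00456). The difamilast call was lost without stimulated replicate 1 (adjusted p = 0.105), 2 (0.104) or 3 (0.126) and without difamilast replicate 1 (0.118) or 2 (0.124), while the log2 fold change stayed between 0.39 and 0.47 under every alternative run, where the adjusted p ran from 0.000896 to 0.126.

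The promoters of the channel genes are shown because the 2 genes moved in opposite directions with stimulation. They are RefSeq sequence of GRCm38.p6, 250 bases before to 50 after the annotated start, at chr5:123014824-123015123 on the plus strand for Orai1 and chr5:136170607-136170906 on the minus strand for Orai2, written 5′ to 3′ along the gene. Capitals mark GGAAA, the core bound by NFAT, read on either strand.
Orai1: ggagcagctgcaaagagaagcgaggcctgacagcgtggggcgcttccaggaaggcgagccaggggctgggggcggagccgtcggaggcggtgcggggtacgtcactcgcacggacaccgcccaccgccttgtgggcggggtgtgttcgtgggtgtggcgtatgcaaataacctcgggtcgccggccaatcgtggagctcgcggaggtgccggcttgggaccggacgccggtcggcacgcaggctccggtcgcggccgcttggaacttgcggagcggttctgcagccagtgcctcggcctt
Orai2: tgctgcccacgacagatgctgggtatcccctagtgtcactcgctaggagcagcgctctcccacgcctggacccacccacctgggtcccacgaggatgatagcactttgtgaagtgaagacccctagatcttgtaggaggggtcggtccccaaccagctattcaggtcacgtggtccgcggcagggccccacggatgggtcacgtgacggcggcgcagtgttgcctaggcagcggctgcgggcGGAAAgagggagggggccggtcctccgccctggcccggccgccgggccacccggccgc
The Orai2 window held GGAAA at 1 place, from 8 to 4 bases before the start, and the Orai1 window held none. On either strand, 61.3% of 32851 mouse promoter windows of this length hold GGAAA. Each window also held 1 match to TGACG, a partial cAMP response element, on either strand, which 20.8% of all windows hold. A match is only a description of the letters.

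Within a library the ratio of Orai1 to Orai2, per length, was 2.19, 2.25 and 2.06 in difamilast, 2.70, 2.26 and 2.60 in stimulated and 0.538, 0.839 and 0.750 in resting libraries. Per length the channel transcripts thus changed places: Orai2 exceeded Orai1 in every resting library and in none of the others. Without division by length, difamilast replicate 3 had 144 CPM of Orai1 and 149 of Orai2. Orai1 was then still the higher in the other difamilast and in all stimulated libraries. The longest annotated transcript set the length, and which transcripts were expressed was not tested. The ratio of Stim1 to Orai1 was 0.0827, 0.0783 and 0.0976 in difamilast, 0.0679, 0.0890 and 0.0869 in stimulated and 0.579, 0.316 and 0.384 in resting libraries. Sensor transcripts were therefore scarcer beside those of the pore in all difamilast and stimulated libraries than in any resting library. In all, 6 ratios were compared between neighbouring groups, which makes 12 comparisons, and 8 gave p = 0.1 in a two-sided exact permutation test of log2 ratios, the smallest that 3 against 3 libraries can give (0.15 after Benjamini-Hochberg adjustment over the 12).

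**Figure D3:**
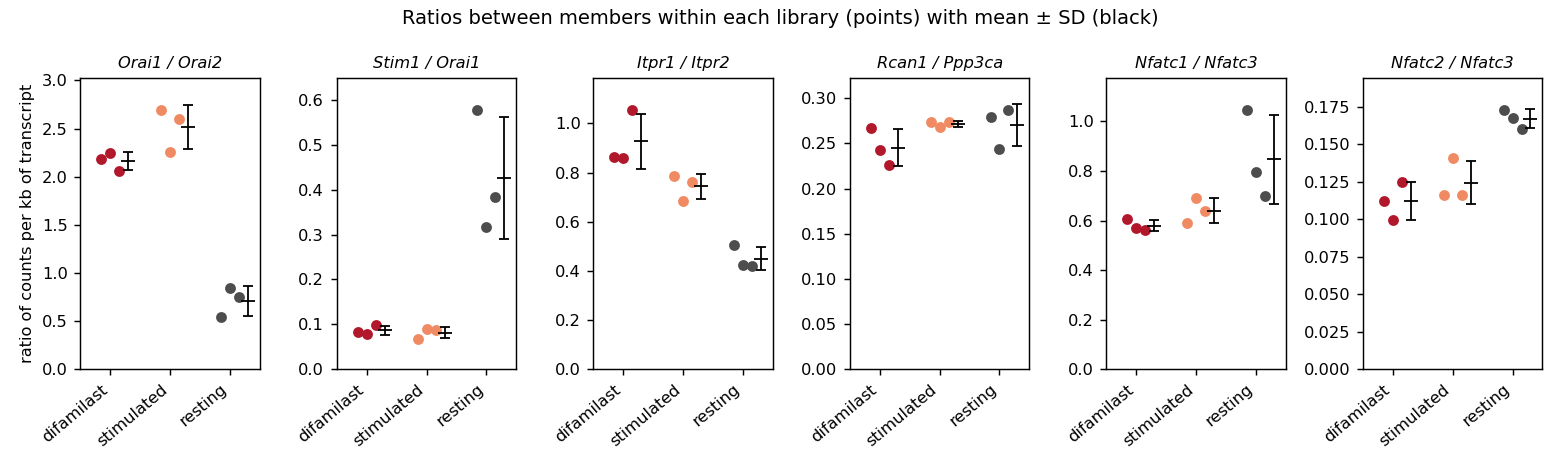
Ratio of counts per kb of transcript between pairs of members within each library (points, on axes that start at 0), with mean ± SD of 3 libraries in black. The Orai1 to Orai2 ratio lies above 2 in difamilast and stimulated libraries and below 1 in resting libraries, and the Rcan1 to Ppp3ca ratio lies between 0.226 and 0.288 in all 9.

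The paralogs Orai3 and Stim2, outside the 10 and named after their values had been seen, did not pass the test in stimulated against resting cells. Orai3 averaged 29.8 ± 3.07 CPM in difamilast, 29.9 ± 4.83 in stimulated and 37.6 ± 6.05 in resting cells (SD, n = 3; adjusted p = 0.125 for stimulated against resting). Stim2, the sensor that answers to small falls in store calcium, averaged 33.2 ± 2.11, 34.0 ± 1.95 and 37.7 ± 5.70 CPM in the same order (adjusted p = 0.439). Per length, Stim2 lay at 6.72 CPM per kb in difamilast, 6.89 in stimulated and 7.64 in resting cells, beside 7.38, 6.00 and 15.3 for Stim1.

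Neither the calcineurin gene Ppp3ca nor the regulator gene Rcan1 passed the test in stimulated against resting cells. Ppp3ca, the alpha isoform of the catalytic subunit, lies on chromosome 3 from 136670124 to 136937727. It had 90.9, 87.8 and 82.9 CPM in difamilast, 96.2, 99.6 and 109 in stimulated and 132, 118 and 114 in resting libraries. The groups stood in steps without overlap. Neither single step passed the test: the log2 fold change was -0.25 ± 0.10 SE in stimulated against resting cells (adjusted p = 0.0742) and -0.22 ± 0.10 in difamilast against stimulated cells (adjusted p = 0.33). The first passed with RLE scaling (adjusted p = 0.0485), in DESeq2 (0.0332) and without resting replicate 3 (0.0426). In difamilast against resting cells Ppp3ca was 1.39-fold lower (-0.48 ± 0.10; adjusted p = 0.00234).

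Rcan1 encodes a protein that binds and restrains calcineurin, and in heart muscle and endothelium its transcription from a start inside the gene is a known readout of calcineurin and NFAT activity. The gene lies on chromosome 16 from 92391953 to 92470867. It had 11.9, 10.4 and 9.15 CPM in difamilast, 12.8, 13.0 and 14.6 in stimulated and 18.0, 14.0 and 16.0 in resting libraries. Every difamilast library lay below every stimulated and every resting one, and stimulated libraries overlapped with resting ones. The log2 fold change was -0.37 ± 0.16 SE in difamilast against stimulated cells (adjusted p = 0.29) and -0.24 ± 0.16 in stimulated against resting cells (adjusted p = 0.276), so Rcan1 passed neither. In difamilast against resting cells it was 1.52-fold lower (-0.61 ± 0.16; adjusted p = 0.00868), a call lost when all libraries were thinned to the shallowest total (adjusted p = 0.166), and over all alternatives the adjusted p ran from 0.0015 to 0.166. The ratio of Rcan1 to Ppp3ca per length was 0.245 ± 0.0209 in difamilast, 0.272 ± 0.00326 in stimulated and 0.270 ± 0.0232 in resting cells (SD, n = 3).

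The 2 promoter windows of Rcan1 in RefSeq (GRCm38.p6, minus strand) are shown because the counts are per gene and do not tell which start a transcript came from. The outer window is chr16:92466120-92466419 and the inner one chr16:92400029-92400328, both 5′ to 3′ along the gene. Capitals mark GGAAA on either strand, the full cAMP response element TGACGTCA and the AP-1 site TGANTCA.
Rcan1 outer: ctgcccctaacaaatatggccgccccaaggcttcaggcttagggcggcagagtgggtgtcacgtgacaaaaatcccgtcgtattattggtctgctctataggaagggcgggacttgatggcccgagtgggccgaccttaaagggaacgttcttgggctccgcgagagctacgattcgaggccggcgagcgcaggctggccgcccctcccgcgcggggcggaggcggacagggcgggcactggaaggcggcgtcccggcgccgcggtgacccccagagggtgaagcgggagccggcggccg
Rcan1 inner: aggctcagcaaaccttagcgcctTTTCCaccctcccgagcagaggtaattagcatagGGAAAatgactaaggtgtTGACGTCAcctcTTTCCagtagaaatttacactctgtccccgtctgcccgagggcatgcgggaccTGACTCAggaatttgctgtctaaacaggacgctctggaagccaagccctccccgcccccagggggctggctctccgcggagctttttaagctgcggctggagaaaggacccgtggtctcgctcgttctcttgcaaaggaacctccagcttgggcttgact
The inner window held 3 matches to GGAAA, 1 to TGACGTCA and 1 to TGANTCA, none overlapping another, and the outer window held none of the 3 motifs. Of 32851 windows on either strand, 9.42% hold GGAAA at 3 or more places, 1.79% hold TGACGTCA and 7.81% hold TGANTCA, and 14 hold all 3 motifs. The letters of a window do not show that a factor bound there in these cells.

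All 3 NFAT factor genes among the 10 fell in stimulated against resting cells. Nfatc1, an NFAT factor known for inducing itself in lymphocytes and osteoclasts, lies on chromosome 18 from 80606205 to 80713071. It had 29.3, 29.6 and 27.0 CPM in difamilast, 29.2, 29.8 and 29.6 in stimulated and 75.3, 56.9 and 48.1 in resting libraries. Difamilast and stimulated libraries were close together, and all lay below the resting ones, which were widely spread. Nfatc1 fell 2.04-fold in stimulated against resting cells (log2 fold change -1.03 ± 0.15 SE; adjusted p = 6.07e-05). The log2 fold change was -0.87 without resting replicate 1, its highest library. In difamilast against stimulated cells the log2 fold change was -0.04 ± 0.14 (adjusted p = 0.934).

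Nfatc2, the factor first described as NFAT1 in T cells, lies on chromosome 2 from 168476410 to 168601657 and was the scarcest member in difamilast and stimulated cells. It had 7.72, 7.35 and 8.54 CPM in difamilast, 8.18, 8.64 and 7.65 in stimulated and 17.7, 17.1 and 15.7 in resting libraries, from 86 to 310 counts a library. It fell 2.07-fold in stimulated against resting cells (log2 fold change -1.05 ± 0.15 SE; adjusted p = 7.41e-05), without overlap, and its difamilast and stimulated libraries mixed (-0.05 ± 0.15, adjusted p = 0.92).

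Nfatc3, which lies on chromosome 8 from 106058840 to 106130537, had the highest level of the 3 NFAT members. It had 60.4, 64.7 and 60.1 CPM in difamilast, 61.8, 53.7 and 57.9 in stimulated and 89.6, 89.3 and 85.9 in resting libraries. The fall in stimulated against resting cells was 1.53-fold (log2 fold change -0.61 ± 0.10 SE; adjusted p = 0.000255), and difamilast did not move it past the test (0.10 ± 0.10, adjusted p = 0.735). The ratio of Nfatc1 to Nfatc3 per length was 0.606, 0.571 and 0.561 in difamilast, 0.589, 0.692 and 0.638 in stimulated and 1.05, 0.795 and 0.699 in resting libraries. Nfatc2 to Nfatc3 stood at 0.112 ± 0.0125, 0.124 ± 0.0144 and 0.167 ± 0.00635 (SD, n = 3) in the same order. Both ratios were lower in all stimulated than in all resting libraries.

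The monocyte and macrophage marker sum and the erythroid and platelet marker sum were lower in all stimulated than in all resting libraries. So were Nfatc1, Nfatc2, Nfatc3, Ppp3ca, Orai2, Stim1 and Itpr2. The basophil, mast cell and neutrophil marker sums were higher in all stimulated than in all resting libraries, as was Orai1. Not all genes of a list moved with its sum. Of the mast cell markers 1 was called as higher (Cpa3) and 3 as lower, with a median log2 fold change of -0.13. Of the neutrophil markers 3 were higher and 1 lower (median -0.01). Of the erythroid and platelet markers only Itga2b was called, as lower (median -0.49). The part of these cell types in the changes was not tested.

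**Figure D4:**
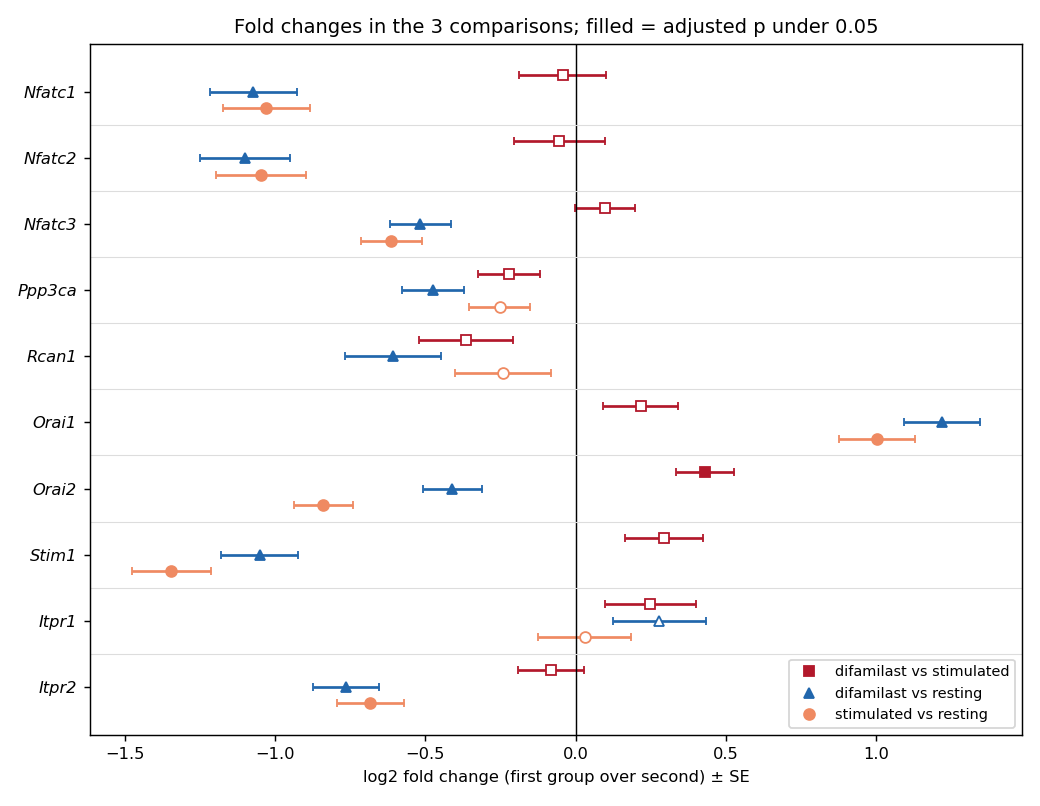
Log2 fold change ± SE of the 10 members in difamilast against stimulated (squares), difamilast against resting (triangles) and stimulated against resting cells (circles); filled symbols have an adjusted p under 0.05 and open ones do not. Against resting cells most members lie below 0 and Orai1 lies above it, and Orai2 is the single filled square, at 0.43.

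Nfat5, a more distant NFAT factor known for its response to osmotic stress and for lacking the calcineurin docking region, behaved otherwise. It had 769, 772 and 814 CPM in difamilast, 829, 836 and 813 in stimulated and 172, 175 and 161 in resting libraries. It rose 4.88-fold in stimulated against resting cells (log2 fold change 2.29 ± 0.09 SE; adjusted p = 9.7e-11), and difamilast and stimulated libraries overlapped. Per length it reached 58.4 CPM per kb in difamilast and 61.5 in stimulated cells, against 12.6 in resting cells, where Nfatc3 stood at 14.8. The other calcineurin-responsive paralog, Nfatc4, averaged 4.17 ± 0.189, 4.70 ± 0.478 and 4.93 ± 1.44 CPM in difamilast, stimulated and resting cells and did not pass (adjusted p = 0.972 for stimulated against resting); it was named after its values had been seen.

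The rest of the pathway was followed in 6 lists of 74 further genes, of which 67 were in the table and passed the filter on low counts. Atp2b1, Atp2b4, Csnk1a1, Homer2, Inpp5a, Itpkc, Tmem203, Trpm4 and Trpm7 are named below after their values had been seen. In stimulated against resting cells 24 of the 67 fell and 11 rose, 52.2% in all, against 31.7% of all tested genes. In difamilast against stimulated cells 2 rose and 1 fell, 4.48% in all, against 3.44% of all tested genes.

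Of 12 genes of calcineurin, calmodulin and their regulators, 3 fell and 2 rose in stimulated against resting cells. Ppp3r1, the regulatory subunit of calcineurin, fell 1.43-fold (adjusted p = 0.00728), the calmodulin gene Calm3 1.48-fold (0.0118) and Chp1, a calcineurin homologous protein, 1.52-fold (0.0109). Calm3 lost its call with stimulated replicate 2 left out (0.0506). Fkbp1a, which encodes FKBP12, the binding protein of the calcineurin inhibitor tacrolimus, rose 1.97-fold (adjusted p = 1.74e-06), with 150, 143 and 149 CPM in difamilast, 123, 136 and 125 in stimulated and 62.1, 64.0 and 69.0 in resting libraries. None of these 12 passed in difamilast against stimulated cells.

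Of 6 kinases that send NFAT back to the cytoplasm, 3 fell in stimulated against resting cells and Csnk1a1 rose 1.25-fold (adjusted p = 0.0384), a call lost in 12 of 17 alternatives, with any library but resting replicate 2 or difamilast replicate 3 left out (up to 0.206). Dyrk2 fell 1.64-fold (adjusted p = 0.000187), Gsk3b 1.54-fold (0.000783) and Csnk1e 1.49-fold (0.000877). Dyrk1a passed in difamilast against resting cells (log2 fold change 0.36 ± 0.12 SE, adjusted p = 0.0294), and did not pass there with any of 5 libraries left out: difamilast replicates 1 (0.0827) and 2 (0.0909), stimulated replicate 1 (0.0586), and resting replicates 2 (0.0881) and 3 (0.113).

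Among 11 further calcium entry genes, 4 fell and 2 rose in stimulated against resting cells. The falls held regulators of the STIM and ORAI complex: Stimate, a promoter of STIM1 activity, fell 2.1-fold (adjusted p = 0.000876), Cracr2a, a calcium sensor that binds ORAI1 in T cells, 1.85-fold (0.000183), and Saraf, which turns store-operated entry off, 1.69-fold (0.000377). The channel kinase gene Trpm7 fell 1.3-fold (0.0192) and the cation channel gene Trpm4 rose 1.34-fold (0.0415). The Trpm7 call was lost without stimulated replicate 1 or 3 (up to 0.0619). The Trpm4 call was lost in 11 of 17 alternatives, among them leaving out any stimulated library, resting replicate 2 or 3, or difamilast replicate 2 (up to 0.24). Trpv2, another cation channel gene, rose 1.88-fold (adjusted p = 0.00176). Its libraries had 76.0, 76.7 and 55.9 CPM in difamilast, 46.7, 50.2 and 53.6 in stimulated and 36.7, 20.9 and 22.5 in resting cells, without overlap.

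The longest list was drawn up around IP3 receptors and the making and removal of IP3, and not all of its genes act on IP3 itself. Of its 18 tested genes 9 fell and 3 rose in stimulated against resting cells, with a median log2 fold change of -0.49. The phospholipase genes Plcg1 and Plcb2, whose enzymes make IP3, fell 3.92-fold (adjusted p = 5.17e-07) and 2.9-fold (1.88e-06). Plcg1 had 7.40, 10.0 and 7.92 CPM in difamilast, 7.42, 7.60 and 7.82 in stimulated and 36.4, 25.3 and 28.1 in resting libraries. Inpp5d, which encodes the inositol phosphatase SHIP1, a brake on activation of basophils and mast cells, fell 2.21-fold (4.25e-07). Homer1, which encodes a scaffold that binds IP3 receptors, rose 2.48-fold (5.3e-06), as did Inpp5a, a phosphatase of IP3, 2.05-fold (3.42e-05), and Itpkc, a kinase of IP3, 1.57-fold (0.0342). The Itpkc call was lost in 8 of 17 alternatives, among them leaving out any stimulated library or resting replicate 2 or 3 (up to 0.192). In difamilast against stimulated cells Homer2 rose 1.77-fold (adjusted p = 0.0111) and Tmem203, which encodes a membrane protein of the endoplasmic reticulum, fell 1.92-fold (0.00847). Both calls were lost without stimulated replicate 1 or difamilast replicate 1 or 2, and that of Homer2 also with all libraries thinned to the shallowest total. The adjusted p values ran up to 0.0773 for Homer2 and up to 0.07 for Tmem203. The Tmem203 transcript is short (854 bases), and the 729 genes of the shortest length class averaging at least 10 CPM had a median log2 fold change of -0.35 in that comparison; the part of length in the Tmem203 call was not tested.

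Of 17 genes of calcium removal and stores, 5 fell and 2 rose in stimulated against resting cells. Atp2a3, the store pump SERCA3, fell 2.54-fold (adjusted p = 3.32e-06) and the mitochondrial exchanger gene Slc8b1 2.48-fold (1.8e-05). The plasma membrane pump genes Atp2b1 and Atp2b4 fell 1.55-fold (0.000256) and 1.38-fold (0.0158). The Atp2b4 call was lost without stimulated replicate 3 and with all libraries thinned to the shallowest total (up to 0.0776). The plasma membrane exchanger gene Slc8a1 rose 2.35-fold (3.63e-05) and Calr, the store protein calreticulin, 1.58-fold (0.000161). With difamilast Atp2b4 rose 1.46-fold against stimulated cells (adjusted p = 0.0333), the single call of this list there. That call was lost in 7 of 17 alternatives, among them leaving out any stimulated library or difamilast replicate 1 or 2 (up to 0.186), and once the length trend was removed (0.0607). Atp2b4 had 24.6, 24.1 and 23.2 CPM in difamilast, 15.2, 18.5 and 15.3 in stimulated and 21.5, 24.9 and 21.5 in resting libraries, so difamilast libraries lay above the stimulated ones and mixed with the resting ones.

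**Figure D5:**
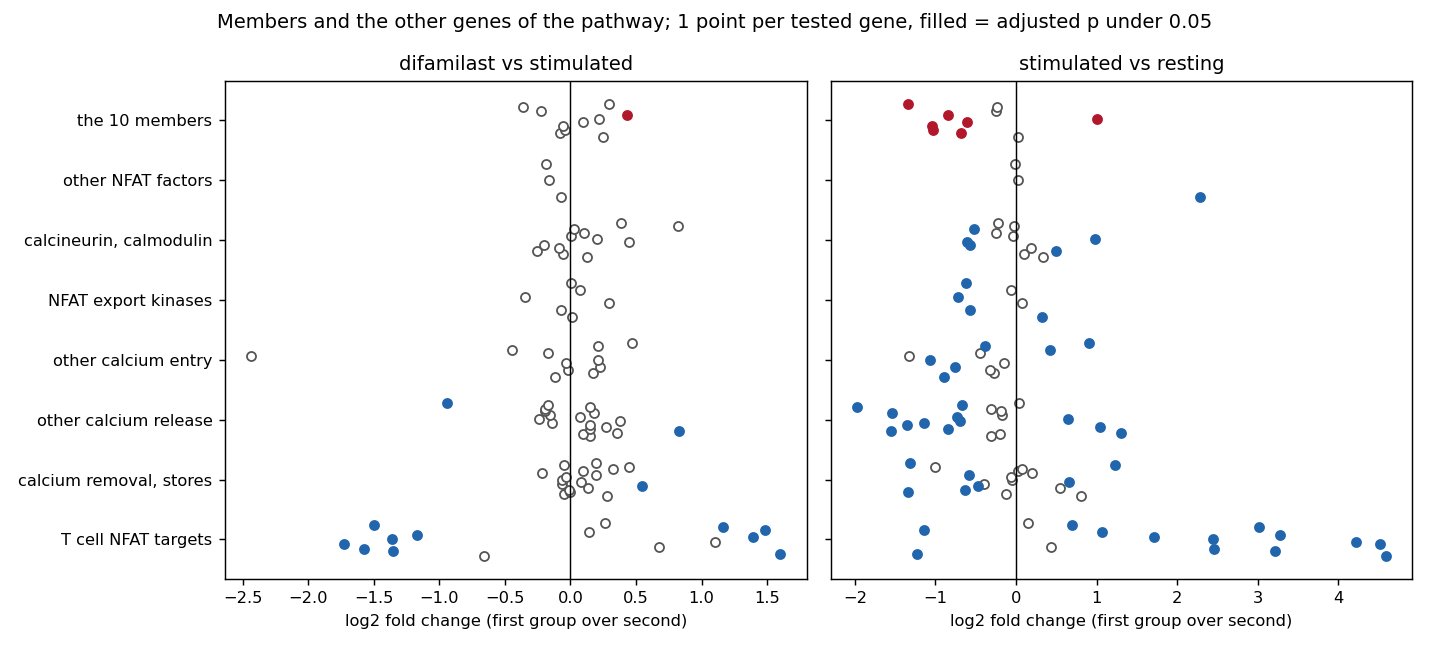
Log2 fold change of every tested gene of the members and of 7 lists, in difamilast against stimulated cells (left) and stimulated against resting cells (right); each point is 1 gene, and filled points have an adjusted p under 0.05. In the left panel the calls lie mostly among the T cell NFAT targets, 6 lower and 4 higher, and in the right panel 9 of the 18 calcium release genes are called as lower. The lists were drawn up with earlier results of these data known.

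Genes known as NFAT targets in T cells gave the most calls of the 7 lists in difamilast against stimulated cells, in both directions. This list was drawn up with earlier results of these data known, so its place among the 7 is no result about NFAT. Of its 18 genes 15 were tested. With difamilast 6 fell (Il13, Egr2, Egr3, Il4, Tnf and Irf4) and 4 rose (Ptgs2, Il5, Ctla4 and Pdcd1) against stimulated cells, where 1.24% of all tested genes were called as lower and 2.21% as higher. The Ctla4 call was lost with libraries thinned to the shallowest total and without stimulated replicate 1 or 3 or difamilast replicate 2 (adjusted p up to 0.115). That of Pdcd1 was lost in 9 of 17 alternatives, among them thinning and leaving out any stimulated or difamilast library or resting replicate 3 (up to 0.266). In stimulated against resting cells 11 rose, and Ctla4 and Pdcd1 fell, against 15.3% of all tested genes called as higher and 16.4% as lower. Of these, the call of Ctla4 was lost without stimulated replicate 3 or resting replicate 3 (up to 0.0822). That of Pdcd1 was lost in 9 of 17 alternatives, among them thinning and leaving out any difamilast library, stimulated replicate 2 or 3, or resting replicate 1 (up to 0.205). The rise of Tnf (adjusted p = 0.0362) was lost in 6 of 17, with any stimulated library or resting replicate 1 or 2 left out (up to 0.24). Those beyond Il13, Egr2, Csf2 and Ptgs2 are named after their values had been seen. Many of these genes answer to other factors too, such as NF-kB and AP-1. Il13 had 242, 256 and 318 CPM in difamilast, 886, 978 and 828 in stimulated and 35.7, 41.0 and 41.3 in resting libraries, and fell 3.3-fold with difamilast against stimulated cells (adjusted p = 1.48e-06). Egr2, a transcription factor gene, had 30.5, 23.0 and 26.6 CPM in difamilast, 67.4, 64.4 and 72.8 in stimulated and 7.62, 6.66 and 7.98 in resting libraries, a 2.55-fold fall against stimulated cells (1.51e-05). Ptgs2, the inducible cyclooxygenase gene, went the other way, 2.24-fold higher with difamilast than in stimulated cells (7.92e-06). For Csf2 the groups did not overlap at 59.8, 68.3 and 110 CPM in difamilast and 121, 132 and 123 in stimulated libraries, without passing (log2 fold change -0.66 ± 0.19 SE, adjusted p = 0.0846). Beside the values of these listed genes, Nfatc1, Nfatc2 and Nfatc3 had log2 fold changes of -0.04, -0.05 and 0.10 in difamilast against stimulated cells. Any relation between the NFAT transcripts and the listed genes was not tested, and NFAT protein was not measured here.

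By shape over the 9 libraries, the genes nearest to Rcan1 were Atic, an enzyme of purine synthesis, the zinc transporter gene Slc39a13 and Mat2a, which makes S-adenosylmethionine. Their root mean square differences from Rcan1, in log2 CPM centred on each gene's mean, were 0.0856, 0.0942 and 0.101, among 8866 genes averaging at least 10 CPM. Nearest to Nfatc1 were Prkra, the diacylglycerol kinase gene Dgkz and the kinase gene Stk38, at 0.0559, 0.0734 and 0.0800. These distances describe these libraries only.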

How the data were processed

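The authors deposited raw read counts per gene symbol for 9 libraries; per the labels' protocols, polyA RNA was amplified as whole-transcriptome cDNA (TAS-Seq), then fragmented and sequenced, with no molecular identifiers named, so counts may hold amplification copies. Tools listed in the submitters' processing notes are cutadapt 4.1 and Bowtie2 2.4.5, with build GRCm38. Which counter and annotation made the table, and whether strand was used, is not given in the sources used here. Positions and lengths are from GENCODE vM21 (34294 of 35673 symbols matched). Exons of Nfatc3, Orai1 and Itpr1 share at most 219 bases with genes on the opposite strand, none averaging over 9.2 counts among those in the table.

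The main test was edgeR 4.0.16 (R 4.3.3) with TMM scaling, filterByExpr (minimum count 10, total 15) and the robust quasi-likelihood fit of all 9 libraries without covariates, Benjamini-Hochberg adjusted over 21341 genes and called at 0.05. Tested genes held at least 99.86% of every library. The alternatives were DESeq2 1.42.0, limma-voom (limma 3.58.1), RLE scaling, no filter, 2-group fits, a replicate block, removal of the trend with transcript length, thinning and leaving out each library. Named genes are the 10 members, up to 4 called genes with the smallest p of each of 7 lists, and the 3 genes nearest in shape to Rcan1 and to Nfatc1. Members and lists were chosen with earlier results of these data known. Promoters are from RefSeq (7 of the 10 genes matched). Nron, Ppp3r2 and Irag2 had no row under these symbols. Single values of some list genes are not reported here.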

Additional observations from a re-analysis of the deposited data

How the results depend on the processing

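Under 17 alternatives, 497 of 510 log2 fold changes of the 10 genes kept their direction and their side of the threshold, 6 lost a call, 3 gained one and 4 changed sign. No alternative used plain library totals without a scaling factor, so these counts do not cover that choice. The sign changes were all in Itpr1, stimulated against resting, which was called nowhere: -0.0154 in DESeq2, -0.0153 with RLE scaling, and from -0.0640 (without resting replicate 2) to 0.119 (without resting replicate 1) with 1 library left out (-0.0633 without resting replicate 3). In difamilast against stimulated cells the number of the 10 genes called ranged from 0 to 1 with 1 library left out. The number of all genes called there was 735, but 1117 in DESeq2 (671 higher, 446 lower), 1351 without a filter on low counts (689 and 662) and 1673 with only the 2 groups compared (831 and 842), and from 347 to 1693 with 1 library left out (347 without difamilast replicate 2, 403 without difamilast replicate 1, 1138 without difamilast replicate 3, 379, 387 and 446 without stimulated replicates 1, 2 and 3, 1693 without resting replicate 1). The cause was not tested. The share of higher calls was 64.1% and ran from 47.5% to 74.4% over all alternatives. The other counts of calls over all genes and over the 10 stayed within 1.5 times their value. This does not cover the counts of calls within the lists. Values of list and marker genes were added after seeing the data. For the 25 list genes named by rule, 8 of 867 lost their call (Calm3 in 1, Dyrk1a in 7, also 0.0851 without a filter and 0.0598 with only the 2 groups). For 19 called genes named after their values had been seen, 87 of 697 did. In both sets 0 changed sign.

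With the replicate number as a block, 700 genes and 1 of the 10 were called in difamilast against stimulated cells, 6489 and 7 in stimulated against resting, and 6652 and 9 in difamilast against resting; the block changed no call among the 10. The labels give the number no meaning, and same-numbered libraries deviated together with correlations from -0.0778 to 0.108. Of 18 tests of a library against another group, the same number correlated highest in 4. Depth limits Nfatc2 and Rcan1 most, with as few as 86 and 126 counts in a library.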
